A study of Rattus norvegicus with 4 samples.

Results

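Tug1, Miat and Terc are 3 noncoding RNA genes listed among long noncoding RNAs (lncRNAs) and measured by RNA sequencing in cultured rat astrocytes. RefSeq classes Tug1 and Miat as lncRNA and Terc as telomerase RNA. They were chosen by name: a listed transcript belonged to them if its Ensembl name, its AceView name or its RefSeq entry was that of the gene. This gave 3 of the 17283 loci in the deposited tables, made of 4 of the 20524 listed transcripts. Tug1 had 2 transcripts, and Miat and Terc had 1 each. The OGD group was 2 libraries of astrocytes deprived of oxygen and glucose for 45 min in glucose-free medium under 1% oxygen and then reoxygenated in their usual medium for 24 h. Such a short, survivable ischemia is called ischemic preconditioning. The control group was 2 libraries of untreated astrocytes. All astrocytes were grown from the cortex of Wistar rats under 24 h old and had been kept on coverslips above neurons, separated from them by paraffin, so both groups shared the co-culture. The labels give neither the sex of the animals nor whether replicates came from separate cultures, so the p-values below measure library-to-library spread, which could be purely technical.

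Tug1 (taurine upregulated gene 1) was first described in the developing mouse retina, is expressed in many tissues including brain, and was reported in human cells to bind Polycomb repressive complex 2, which places a repressive methyl mark on histone H3. Miat, also called Gomafu, is a lncRNA of neurons and other cells in mouse brain that stays in the nucleus and was reported to bind the splicing factor Sf1. Terc is the RNA subunit of telomerase and carries the template from which the enzyme adds telomere repeats. It is a short structured RNA without a poly(A) tail.

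The libraries held 2513804 to 2646300 counts over all listed lncRNAs, which is 9.98% to 10.6% of the library totals implied by the deposited FPKM. FPKM are fragment counts scaled by transcript length and library total. The tables list noncoding transcripts, so cell type markers appear in them only as noncoding transcripts at the marker genes, whose counts may hold reads of the messenger RNA. Of 10 astrocyte marker names, 5 had a listed noncoding transcript. Their summed level in CPM (counts scaled to a common library total) was 64.4 and 33.8 in OGD replicates 1 and 2. It was 50.9 and 34.3 CPM in control replicates 1 and 2. Gfap, the gene of an astrocyte intermediate filament, was highest, at 139 and 51 counts in OGD and 100 and 61 in control. It made up most of the astrocyte sum in each library. Aldoc had 17 and 15 counts in OGD and 26 and 13 in control, and Slc1a3 had 11 and 6 in OGD and 10 and 9 in control. Slc1a2 and Glul had at most 7 counts in any library. Aqp4, Gja1, Sox9, Aldh1l1 and S100b had no listed transcript, so the astrocyte label was only partly checked, and mostly on Gfap. Of 6 fibroblast names, 2 were listed, Col1a1 and Col3a1, both collagen genes, with a sum of 184 and 325 CPM in OGD and 160 and 344 CPM in control. Of 8 microglia names, 3 were listed, with a sum of 10.9 and 35.9 CPM in OGD and 28.4 and 43.4 CPM in control. The astrocyte sum was below the fibroblast sum in every library. It was above the microglia sum in replicate 1 of each group and below it in replicate 2. The fibroblast and microglia sums were lower in replicate 1 than in replicate 2 of each group, whereas the astrocyte sum was higher. The part of these cell types in the values below was not tested.

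The RefSeq promoter table of assembly GRCr8 held 1 of the 3 genes, Tug1. Its sequence from 250 bases before to 50 bases after the RefSeq start (chr14:82750485-82750784, minus strand) is printed because low oxygen was part of the treatment and the core letters bound by hypoxia-inducible factors can be looked for in it. Lower case marks the bases before the start and capitals the 50 bases from the start on.
Tug1 promoter: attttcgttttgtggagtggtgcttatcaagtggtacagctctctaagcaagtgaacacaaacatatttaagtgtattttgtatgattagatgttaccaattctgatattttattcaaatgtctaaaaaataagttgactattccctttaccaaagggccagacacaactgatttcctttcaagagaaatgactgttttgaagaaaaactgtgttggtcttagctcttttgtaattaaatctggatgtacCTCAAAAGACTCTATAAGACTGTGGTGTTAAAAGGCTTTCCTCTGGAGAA
On both strands, neither ACGTG nor GCGTG occurs in this window. Among 33469 promoters of the same length, 19.3% held ACGTG, 29.7% held GCGTG and 41.6% held at least 1 of them. The Tug1 window held 1 CG dinucleotide, against a median of 7 over all promoters, and 34.0% G and C, against a median of 51.7%. Both ACGTG and GCGTG contain CG, so a window with 1 CG has little room for either. The shares over all promoters were not matched for CG, so no conclusion is drawn from the comparison. RefSeq gives Tug1 a length of 7034 bases on GRCr8, whereas the longest Tug1 transcript in the tables spans 9290 bases, so this start need not be that of the listed transcripts. The absence of these letters says nothing of the window upstream of another start.

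The first comparison asked whether the summed counts of each gene differed between OGD and control. None of the 3 passed the test. Tug1 averaged 403 ± 37.1 CPM in OGD and 445 ± 40.1 CPM in control, Miat 75.0 ± 1.61 CPM in OGD and 61.4 ± 9.58 CPM in control, and Terc 5.29 ± 1.58 CPM in OGD and 2.98 ± 1.96 CPM in control (SD, n = 2 per group). CPM here are normalised by TMM (trimmed mean of M values), which corrects library totals for composition. By edgeR's quasi-likelihood test, 0 of the 3 passed an adjusted p of 0.05, and 0 had an unadjusted p under 0.05. DESeq2 also called 0. Over all 9579 tested loci edgeR called 8 (0.0835%, or 0.0418% in each direction), 224 had an unadjusted p under 0.05 (2.34%), and the share called by DESeq2 was 0.405% of 9393 loci with an adjusted p there. Genes with no call are therefore like most loci. The adjusted p was 1.00 for each gene.

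**Figure D1:**
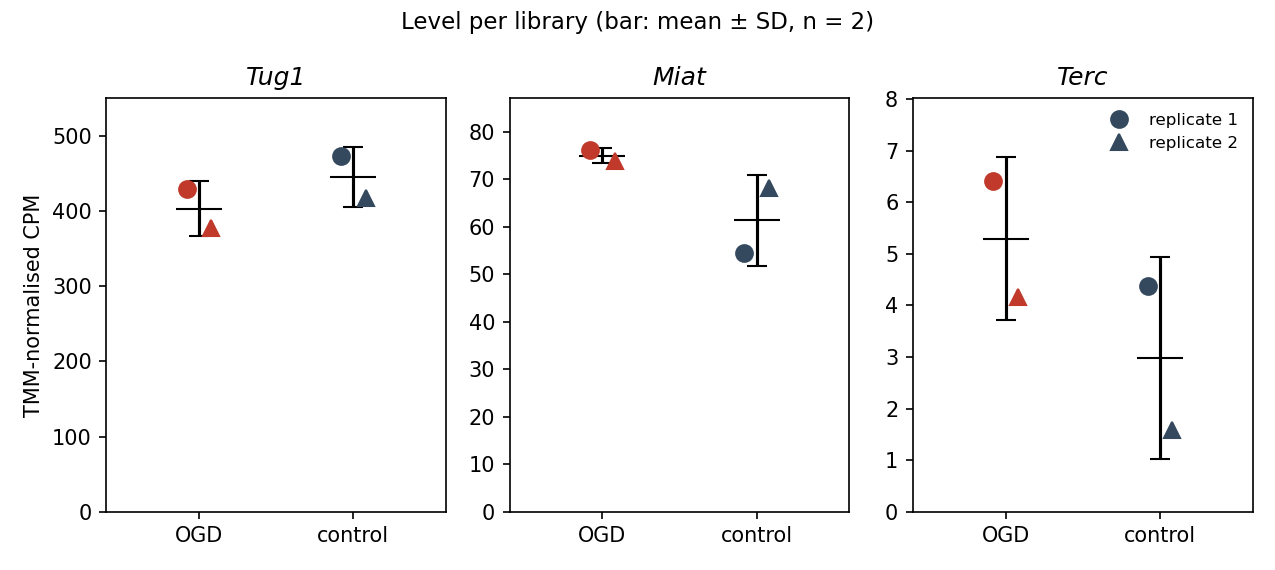
TMM-normalised CPM of Tug1, Miat and Terc in each library, with OGD on the left and control on the right of each panel. Circles are replicate 1, triangles replicate 2, and black bars the mean ± SD (n = 2). For Miat both OGD libraries (76.1 and 73.8 CPM) lie above both control libraries (54.6 and 68.1 CPM), and for Tug1 and Terc the groups overlap.

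Tug1 had 1140 and 904 counts in OGD replicates 1 and 2, and 1301 and 1046 in control replicates 1 and 2. After TMM scaling these were 429 and 377 CPM in OGD, against 473 and 417 CPM in control. The groups overlap, since OGD replicate 1 lies above control replicate 2. The log2 fold change was -0.14 (SE 0.18, unadjusted p = 0.469 in edgeR), with an approximate 95% interval of -0.62 to 0.33. As a fold, the interval runs from 0.652 to 1.26. With 4391 counts in all, Tug1 was the most deeply counted of the 3, and its mean CPM ranked 334th among 9579 tested loci.

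Miat had 202 and 177 counts in OGD, and 150 and 171 in control. Both OGD libraries were above both control libraries. Such a separation with OGD higher occurred at 14.0% of tested loci. The log2 fold change was 0.29 (SE 0.22, unadjusted p = 0.242 in edgeR), with a 95% interval of -0.28 to 0.85, or 0.826-fold to 1.81-fold. The value rests in part on control replicate 1: without it the log2 fold change was 0.14, and without control replicate 2 it was 0.46.

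Because Miat is known from neurons, the noncoding transcripts at neuron marker genes are given beside it. Of 10 neuron names, 5 had a listed transcript, and their summed level was 110 and 121 CPM in OGD and 89.9 and 120 CPM in control. In every library this was above the sum of the listed astrocyte markers. Gria2, an AMPA receptor subunit gene, made up most of the sum in each library, with 70.4 and 92.6 CPM in OGD and 81.2 and 110 CPM in control. Syn1, a synaptic vesicle protein gene, had 98 and 45 counts in OGD and 2 and 1 in control (adjusted p = 0.185 in edgeR). RGD1560070, now Rbfox3 and a neuronal splicing factor gene, had 6 and 19 counts in OGD and 19 and 20 in control. Of the 3 tested neuron loci, 1 had a log2 fold change above 0 (Syn1) and 2 below it (Gria2 and Rbfox3), with a median of -0.23, and 0 passed the adjusted threshold. Nefl and Syt1, with at most 4 counts in any library, were not tested. Map2, Tubb3, Snap25, Stmn2 and Nefm had no listed transcript. The part of neuronal RNA in the Miat values was not tested. In these bulk samples, fewer cells that express an RNA and less of it per cell cannot be told apart.

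Terc had 17 and 10 counts in OGD, and 12 and 4 in control. The groups overlap, since control replicate 1 lies above OGD replicate 2 in counts and in CPM (4.37 and 4.17 CPM). The summed 27 counts in OGD and 16 in control give a scaled ratio of 1.76, with an exact 95% binomial interval of 0.913 to 3.49 that covers counting error only. With the spread between libraries included, the log2 fold change was 0.81 (SE 0.63, unadjusted p = 0.257 in edgeR), with a 95% interval of -0.83 to 2.45. That is 0.563-fold to 5.45-fold, so a difference of Terc within these limits could not be told from none with these libraries. The low count of control replicate 2 weighs on the value, which was 0.29 without that library and 1.71 without control replicate 1.

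**Figure D2:**
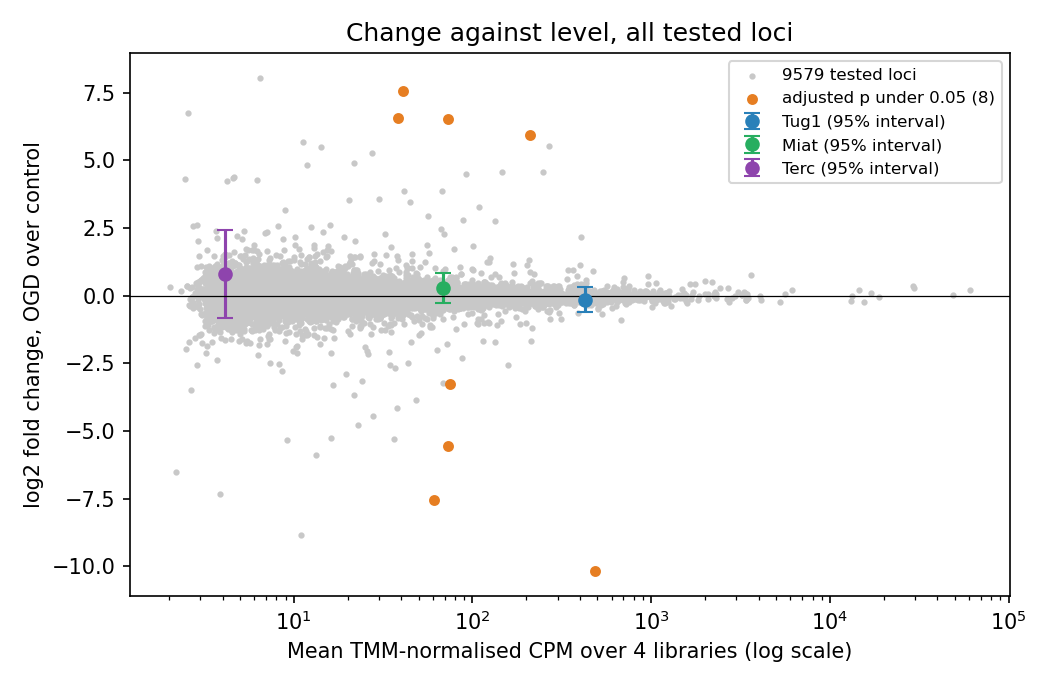
Log2 fold change (OGD over control) against mean TMM-normalised CPM on a log axis for the 9579 tested loci in grey, with the 8 loci past the adjusted threshold in orange and the 3 genes with their 95% intervals. The interval runs from -0.62 to 0.33 for Tug1 and from -0.28 to 0.85 for Miat. Terc lies at the low-count end with an interval from -0.83 to 2.45. All 3 intervals include 0.

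The sizes of these differences were read against all tested loci. The median absolute log2 fold change over the 9579 loci was 0.22, with quartiles of 0.10 and 0.43. Tug1 differed by less than this median, Miat by more than the median and less than the upper quartile, and Terc by more than 92.4% of loci. The last has to be read with its count, since 5.32% of tested loci had a lower mean CPM than Terc.

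Levels between genes were compared per length, on the deposited FPKM. Tug1 was the most abundant of the 3. Its shorter transcript had 11.5 and 10.6 FPKM in OGD and 14.8 and 11.4 FPKM in control, above 94.8% to 96.5% of the listed transcripts with any reads. The longer had 4.68 and 3.16 FPKM in OGD and 4.71 and 3.52 FPKM in control. Miat had 0.956 and 0.835 FPKM in OGD and 0.709 and 0.765 FPKM in control. The median of all transcripts above 0 was 0.807 to 0.948 FPKM, so Miat sat near the middle of the tables. Terc had 1.74 and 1.02 FPKM in OGD and 1.23 and 0.388 FPKM in control. Over the libraries, the range of Terc includes that of Miat, so these neighbours in the order do not differ beyond their spread, whereas each Tug1 transcript was above both in every library. The Terc values rest on 4 to 17 counts per library and a listed length of 391 bases, against 8474 bases for Miat. Whether a short length or the lack of a poly(A) tail affected capture was not tested, so the order holds for deposited FPKM only.

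The Tug1 transcripts were then taken one by one. ENSRNOT00000076420 (chromosome 14, 83878295 to 83887584) has a listed length of 5121 bases, and ENSRNOT00000089742 (chromosome 14, 83881371 to 83885791) one of 1889 bases and lies wholly within the span of the first. These are the coordinates of the deposited tables, for which no rat build is given. The long transcript had 598 and 405 counts in OGD and 602 and 476 in control, with overlapping groups and a log2 fold change of -0.06 (SE 0.23, unadjusted p = 0.821 in edgeR fitted on single transcripts). The short one had 542 and 499 counts in OGD and 699 and 570 in control, a log2 fold change of -0.23 (SE 0.18, unadjusted p = 0.264). On TMM-normalised CPM the short transcript was lower in both OGD libraries (205 and 208 CPM) than in both control libraries (256 and 229 CPM), as were 14.1% of the 10892 tested transcripts. On deposited FPKM the groups overlap, since OGD replicate 1 (11.5 FPKM) was above control replicate 2 (11.4 FPKM). Of the 4 transcripts of the 3 genes, 0 passed an adjusted p of 0.05 or an unadjusted p under 0.05 in edgeR, and DESeq2 called 0. Over all 10892 tested transcripts edgeR called 1 (0.00918%) and 2.68% had an unadjusted p under 0.05, and DESeq2 called 0.652%.

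The share of Tug1 counts on the long transcript was 52.5% and 44.8% in OGD, and 46.3% and 45.5% in control. The exact 95% binomial interval of OGD replicate 1 was 49.5% to 55.4%, above those of OGD replicate 2 (41.5% to 48.1%), control replicate 1 (43.5% to 49.0%) and control replicate 2 (42.5% to 48.6%). The other 3 libraries overlap one another. These intervals cover counting error only and hold no spread between libraries, and the 2 groups overlap. With 2 libraries against 2, an exact permutation test cannot reach 0.05, and none was run. How reads in the shared 4421 bases were assigned is not given in the sources used here, so the shares are those of the counting program.

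Another transcript at Tug1 goes under an older name. NONRATT010085.2 (chromosome 14, 83880928 to 83882200) is listed as LOC100125371, and the number in this name is the gene number that RefSeq gives to Tug1. It was outside the naming rule and is not in the sums above. It lies within the span of the long transcript and shares 830 bases of span with the short one. Its counts were 235 and 195 in OGD and 248 and 217 in control, or 88.5 and 81.3 CPM in OGD against 90.3 and 86.5 CPM in control. The groups overlap, with a log2 fold change of -0.06 (SE 0.19, unadjusted p = 0.776 in edgeR). Adding it and the transcript described next to the Tug1 sum left the log2 fold change at -0.13.

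At the high-coordinate end of Tug1, NONRATT010087.2 (kloko in AceView, chromosome 14, 83887431 to 83887812) overlaps the 154 bases of the Tug1 span with the highest coordinates. It had 11 and 10 counts in OGD and 10 and 16 in control, with overlapping groups (log2 fold change -0.26, SE 0.48, unadjusted p = 0.614 in edgeR). The tables give no strand, so reads of kloko and of Tug1 in the shared bases cannot be told apart. The StringTie transcript MSTRG.10475.1 was the only other listed transcript within 50 kb, 35418 bases from Tug1. Its counts were 16 and 43 in OGD and 11 and 77 in control, with replicate 1 below replicate 2 in each group and a log2 fold change of -0.53 (SE 1.03). No other transcript was listed within 50 kb of Miat (chromosome 12, 50447251 to 50461859) or of Terc (chromosome 2, 116432723 to 116433113). The Terc entry is 391 bases long, against 388 bases for the RefSeq gene.

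**Figure D3:**
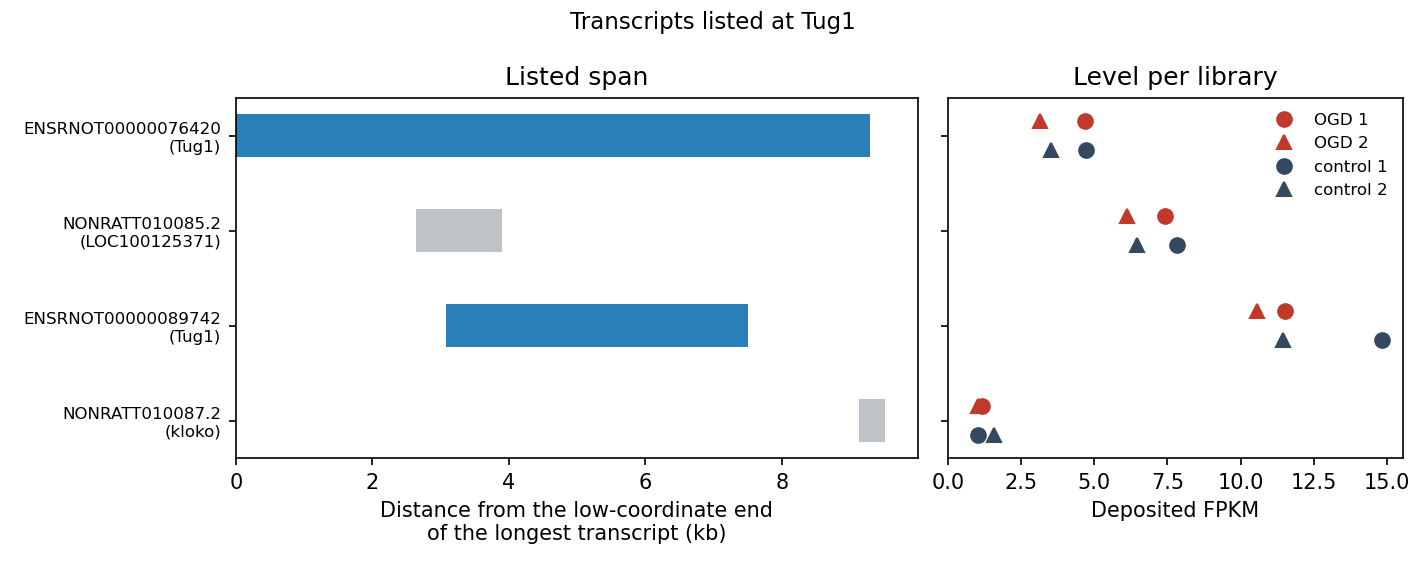
Left, the span of each transcript listed at Tug1, in kb from the low-coordinate end of the longest; blue bars carry the name Tug1 and grey bars overlap it under another name. Right, deposited FPKM of each transcript in each library, OGD in red and control in dark blue. The short Tug1 transcript is the highest in all 4 libraries, from 10.6 to 14.8 FPKM.

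The genes that work with these RNAs were described next, as noncoding transcripts listed at those genes, with the same limit as the marker loci. Telomerase and telomere genes had 12 listed loci for 27 names, and 11 were tested. By edgeR 0 rose and 0 fell at an adjusted p of 0.05, 1 had an unadjusted p under 0.05, and DESeq2 called 0. The median log2 fold change was 0.26, against -0.0016 over all tested loci. The 1 locus was Rtel1, the gene of a helicase that unwinds telomere loops, with 90 and 83 counts in OGD and 19 and 47 in control (34.3 ± 0.505 CPM in OGD and 12.8 ± 8.35 CPM in control, SD, n = 2; unadjusted p = 0.0400, adjusted p = 1.00). Its log2 fold change was 1.42 (SE 0.51), and lay between 0.88 and 2.31 when a library was left out. Acd, the gene of the shelterin protein TPP1, had a log2 fold change of 0.26 (SE 0.20). Tep1, the gene of a telomerase-associated protein, stood at -0.64 (SE 0.39), with 24 and 24 counts in OGD and 51 and 28 in control. It was at -0.22 without control replicate 1 and at -0.95 without control replicate 2.

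Wdr79, now Wrap53 and the gene of the protein that brings telomerase to Cajal bodies, had 22 and 18 counts in OGD and 17 and 15 in control. Terf1, the gene of a telomere-binding shelterin subunit, had 11 and 17 counts in OGD and 30 and 10 in control. Log2 fold changes were 0.37 for Wdr79, -0.42 for Terf1, -0.09 for Obfc1 (now Stn1) and 0.44 for RGD1563106 (now Ctc1), both of the CST complex at telomere ends. The transcript at Tert, the catalytic partner of Terc, had too few counts to be tested, 5 and 3 in OGD and 2 and 0 in control, and is named after its values were seen. With so few counts, its scaled ratio was 4.16 with a 95% counting interval from 0.831 to 40.2.

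Polycomb repressive complex 2 genes, reported as partners of Tug1, had 4 listed loci for 11 names, and 3 were tested. By edgeR 0 passed the adjusted threshold and 0 had an unadjusted p under 0.05, DESeq2 called 0, and the median log2 fold change was 0.10. Ezh2, the gene of the methyltransferase subunit, had 37 and 23 counts in OGD and 29 and 23 in control. Aebp2, an accessory subunit gene, measured 350 ± 2.79 CPM in OGD and 377 ± 30.6 CPM in control, and Mtf2, another, 40.2 ± 0.189 CPM in OGD and 37.5 ± 23.2 CPM in control (SD, n = 2). The 95% intervals of all 3 include 0.

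Splicing factor genes, chosen for Miat, had 9 listed loci for 15 names, and all 9 were tested. By edgeR 0 passed the adjusted threshold and 0 had an unadjusted p under 0.05, and DESeq2 called 0. The log2 fold change was above 0 at 7 of the 9, with a median of 0.31. Over all tested loci the median was -0.0016, so values above and below 0 were about equally common there. Sf1, the branch point binding protein that Miat was reported to bind, measured 81.2 ± 8.36 CPM in OGD and 64.6 ± 9.52 CPM in control (SD, n = 2), a log2 fold change of 0.33 (SE 0.22). Hnrnpa1 had a log2 fold change of 0.33 (SE 0.19), and Sfrs2 (now Srsf2) one of 0.31 (SE 0.19).

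The remaining splicing loci varied more. Tnrc4, now Celf3, had 101 and 92 counts in OGD and 33 and 90 in control, a log2 fold change of 0.68 (SE 0.54). It was at 0.10 without control replicate 1 and at 1.67 without control replicate 2. Sfrs1, now Srsf1, was high in 1 library, with 34 and 85 counts in OGD and 35 and 34 in control. Sfrs7 (now Srsf7) and Cugbp1 (now Celf1) stood at 0.11 and -0.09. Sfrs3 (now Srsf3) stood at -0.30. Tardbp, the gene of TDP-43, stood at 0.01, and at -0.03 when libraries were scaled by their totals alone. With a library left out, Sfrs1, Sfrs3, Sfrs7 and Tardbp changed sign. The OGD and control libraries did not overlap at 5 of the 9 splicing loci, against 28.0% of all tested loci. OGD was higher at Sf1, Hnrnpa1, Sfrs2 and Tnrc4 (14.0% of all tested loci) and lower at Cugbp1 (14.0%). The groups also did not overlap at 5 of the 11 tested telomerase and telomere loci, with OGD higher at 4 and lower at 1. Of the 3 tested Polycomb repressive complex 2 loci, 1 did not overlap, with OGD lower.

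**Figure D4:**
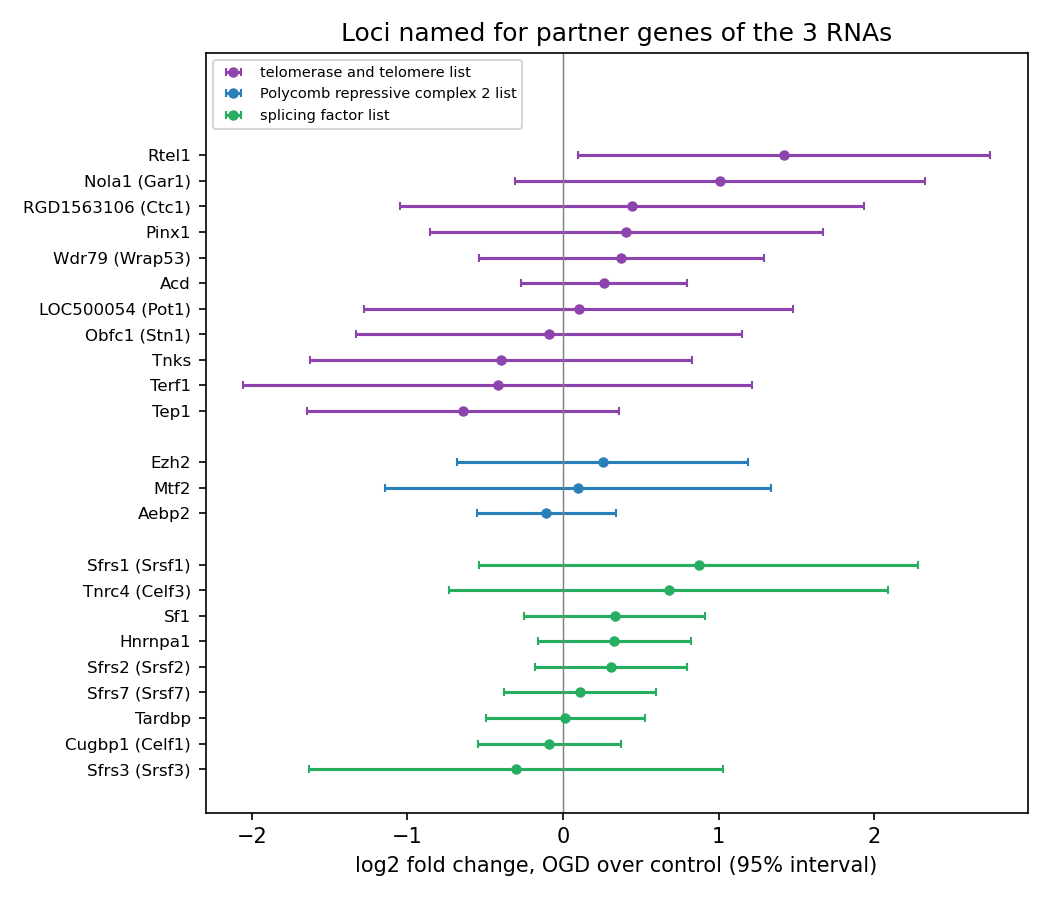
Log2 fold change (OGD over control) with its approximate 95% interval for the 23 tested loci named for telomerase and telomere, Polycomb repressive complex 2 and splicing factor genes; current symbols are in brackets. The interval of Rtel1 alone lies above 0, before any adjustment for the number of loci tested, and 0 of the 23 passed the adjusted threshold.

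Loci with the most similar pattern over the 4 libraries were found by the Euclidean distance between log2 CPM values centred on each locus's mean, among 1089 tested loci with a gene symbol and a mean of at least 50 counts. These distances rest on 4 points and are a description. Tug1 was closest to Yt521 (now Ythdc1; distance 0.031), Hdgf (0.053) and Rpl30 (0.057), against a median distance of 0.49. Yt521 measured 131 and 116 CPM in OGD and 148 and 127 CPM in control, which like Tug1 is lower in replicate 2 than in replicate 1 of each group. Miat was closest to Homer3 (0.076), Adipor1 (0.076) and Ggnbp2 (0.099), against a median of 0.56. Homer3 had 97.6 and 96.8 CPM in OGD and 75.0 and 92.0 CPM in control, with its lowest value, like that of Miat, in control replicate 1. Terc was closest to Cd47 (0.25), Emid1 (0.33) and Gas7 (0.33), against a median of 1.38. Cd47 had 50.1 and 34.2 CPM in OGD and 42.6 and 17.1 CPM in control, with control replicate 2 lowest, as for Terc.

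**Figure D5:**
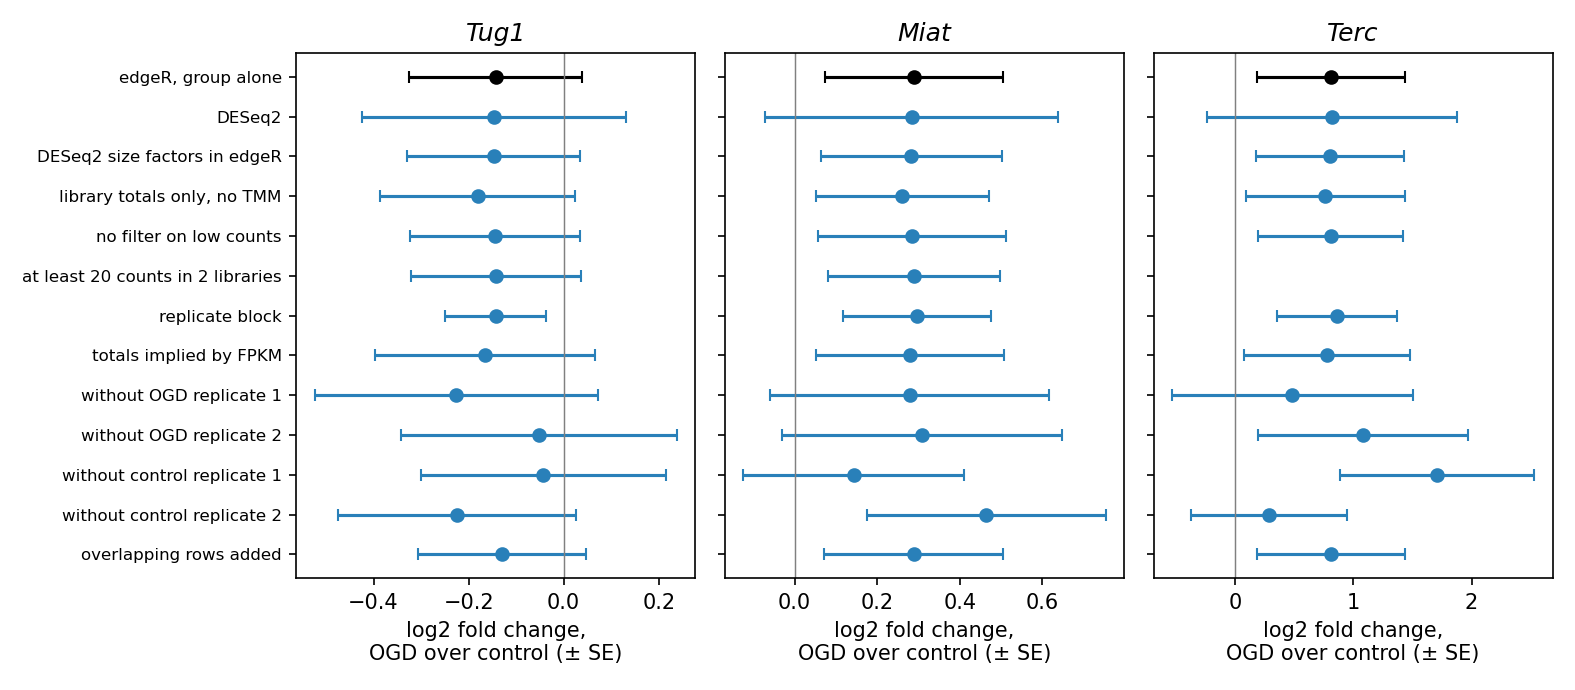
Log2 fold change (OGD over control) ± SE of Tug1, Miat and Terc under each processing alternative, with the edgeR fit on group alone in black. The sign is negative for Tug1 and positive for Miat and Terc in every alternative shown, and Terc ranges from 0.29 to 1.71 with a library left out; Terc has too few counts for the filter of 20 counts in 2 libraries.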

How the data were processed

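Total RNA of 4 astrocyte libraries was sequenced on Illumina libraries, per the labels' protocols. The authors deposited 1 table per library with whole-number read counts and FPKM per listed transcript, per the file headers. HISAT2, StringTie and the mouse build mm9 are named in the submitters' processing notes, although the listed transcripts carry rat identifiers. The sources used here name no counting program, strand setting or annotation. Coordinates are printed as deposited, with no build assigned to them. The members and lists were chosen with earlier results of these data known.

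Transcripts sharing a gene name on 1 chromosome were summed, giving 17283 loci, of which 9579 passed filterByExpr. Loci, and separately single transcripts, entered edgeR 4.0.16 under R 4.3.3 (TMM, quasi-likelihood F test on group, Benjamini-Hochberg over all tested features, threshold 0.05). Of these steps, the edgeR fit on loci was tested on simulated counts. Approximate standard errors are the size of the log2 fold change over the root of F, and 95% intervals use the t quantile of the fit's degrees of freedom. Alternatives were DESeq2 1.42.0, other scalings and filters, the replicate number as a block, overlapping transcripts added, and each library left out. Named partner loci have at least 20 counts in 1 library, and others follow the rules given beside them. A gene first placed in the splicing factor list was taken out of it and is not reported here.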

Additional observations from a re-analysis of the deposited data

How the results depend on the processing

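Tug1, Miat and Terc kept their direction and stayed short of the threshold under every alternative run, 12 each for Tug1 and Miat and 11 for Terc, which could not be tested under the filter of 20 counts. Log2 fold changes lay between -0.23 and -0.04 for Tug1, 0.14 and 0.46 for Miat and 0.29 and 1.71 for Terc, and the smallest unadjusted p was 0.238, 0.160 and 0.107. Replicate numbers are shared by the groups, but the labels do not say what they mark. The correlation across loci of same-numbered libraries' deviations within their groups was 0.293. With the replicate number as a block, the log2 fold changes were -0.14, 0.30 and 0.86 and the adjusted p 0.888, 0.872 and 0.872, with 22 loci and 0 transcripts past the threshold. Instead of 8 called loci there were 38 by DESeq2, 0 with no low-count filter (403 at an unadjusted p under 0.05), and 0 to 12 with a library left out. The 1 called transcript became 71 with DESeq2, and 0 with any library left out. The partner lists had 0 calls throughout. Of 187 alternative values of 19 named partner loci, 174 kept direction and side and 13 changed sign. Tardbp was at -0.028 with library totals alone. With a library left out, Tardbp lay between -0.13 and 0.19, Obfc1 between -0.60 and 0.31, RGD1563106 between -0.25 and 0.90, Terf1 between -0.95 and 0.49, Ezh2 between -0.027 and 0.50, Mtf2 between -0.42 and 0.93, Sfrs1 between -0.037 and 1.44, Sfrs3 between -0.91 and 0.24 and Sfrs7 between -0.028 and 0.28. Likewise ENSRNOT00000076420 lay between -0.26 and 0.14, LOC100125371 between -0.11 and 0.0024, kloko between -0.61 and 0.20 and MSTRG.10475 between -1.52 and 1.57. Why these values shift was not tested. Scaling to the totals implied by FPKM was chosen after seeing the data. Terc had 43 counts in all, with an exact counting interval of its ratio from 0.913 to 3.49.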
